A study of Mus musculus with 6 samples.

Results

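The 10 genes described here regulate the passage from G1 into S phase, and they were taken by symbol from a table of TPM values for 28584 gene symbols in mouse embryonic stem cells (mESCs). They are the D-type cyclins Ccnd1, Ccnd2 and Ccnd3, the E-type cyclins Ccne1 and Ccne2, the kinases Cdk4 and Cdk6, the retinoblastoma gene Rb1, and the inhibitor genes Cdkn1b (p27) and Cdkn2a (p16Ink4a and p19Arf). All 10 symbols were in the table and all 10 passed the filter on low values. The study asked whether Oncostatin M (OSM) can stand in for leukemia inhibitory factor (LIF). One mESC line from C57BL/6 × 129S6 embryos was grown on mitomycin C-inactivated mouse embryonic fibroblasts (MEF feeders) with serum and LIF, then moved to basic medium alone (-LIF-ESCs), with 1000 U/mL LIF (LIF-ESCs), or with OSM at 10 ng/mL instead (OSM-ESCs). All groups received the same serum-containing basic medium. RNA was taken after 10 passages in these media (P10), from 2 biological replicates in each of the 3 groups. Every value therefore comes from a single line, the 2 libraries of a group measure only the spread between samples of that line, and the sources used here do not say whether feeders were still present at harvest.

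In G1, growth signals raise D-type cyclins, which activate Cdk4 and Cdk6, and these kinases phosphorylate the retinoblastoma protein Rb. Phosphorylated Rb releases E2F transcription factors, whose targets include the E-type cyclins, the partners of Cdk2, and many DNA replication genes. The p27 protein, product of Cdkn1b, inhibits cyclin E-Cdk2 and also binds cyclin D complexes, while p16Ink4a inhibits Cdk4 and Cdk6, and p19Arf stabilises p53. Mouse ESCs are known for a short G1, high cyclin E-Cdk2 activity and little cyclin D, and the D-type cyclins rise when they differentiate. Most of this control acts on proteins (phosphorylation and degradation), which RNA levels do not measure.

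The libraries held 20712939 to 28994417 reads, recovered as whole numbers from TPM and exon length. The members had between 145 and 11650 reads in a library, whole in all libraries for all 10, and counting alone gave a log2 fold change an error of 0.015 for Cdk4 to 0.101 for Cdkn2a. The 10 embryonic stem cell markers summed to 5502 to 5520 TPM without cytokine, 7481 to 7531 with LIF and 6962 to 7007 with OSM. The sum is led by Dppa5a, which did not pass in any comparison, and with either cytokine 8 of the 10 passed higher than in -LIF-ESCs and 1, Nanog, lower, at 433 TPM without cytokine, 290 with LIF and 261 with OSM. All 10 were detected in every library, although the extraction text of the labels names ovaries. The groups were not alike in other markers. The 6 markers of simple epithelium summed to 2799 to 2823 TPM without cytokine against 325 to 342 with LIF and 313 to 323 with OSM, and 4 mesoderm markers to 69.6 to 72.7 against 2.72 to 3.84 and 2.99 to 3.34. The 3 trophoblast markers in the table summed to 36.0 to 37.5 TPM without cytokine, 2.03 to 2.43 with LIF and 2.91 to 3.36 with OSM. Single genes led these sums. Epcam, the largest part of the epithelial sum with either cytokine, changed much less than the sum (276, 229 and 209 TPM). T led the mesoderm sum without cytokine (60.7, 0.780 and 0.923 TPM in the 3 groups), and Hand1 led the trophoblast sum there (27.5, 0.407 and 0.140 TPM). Of the 3 neural markers, Nes was lower with LIF and with OSM (31.6, 12.6 and 17.2 TPM), whereas Sox1 (0.464, 3.69 and 3.12 TPM) and Pax6 (0.437, 3.07 and 3.27 TPM) were higher. Higher with the cytokines as sums, 7 primitive endoderm markers came to 7.52 to 8.22 TPM without cytokine, 54.1 to 56.1 with LIF and 34.2 to 35.7 with OSM, and 17 fibroblast markers to 52.7 to 57.1, 431 to 434 and 599 to 609 (Pdgfra is in both lists). Lama1 was the largest part of the endoderm sum (4.04, 34.2 and 19.0 TPM). Of the 6 endoderm markers tested, 6 passed higher with LIF and 5 with OSM, without Sox17 (0.359 and 0.406 TPM, limma adjusted p = 0.784). Of all genes, 42.2% passed higher with LIF and 42.9% with OSM. Gata6, Sox7, Sox17 and Pdgfra lay under 1 TPM in both -LIF-ESC libraries. They met the filter on low values only through the cytokine groups, so their direction was largely set by the filter. Foxa2, not tested, was lower with the cytokines (0.829, 0.552 and 0.557 TPM). In such bulk samples, fewer cells of a type and less RNA per cell cannot be told apart, and the part of these cell types in the members' levels was not tested.

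Differences were estimated with limma on log2(TPM + 1) over 18556 genes (those reaching 1 TPM in 2 or more libraries), and are given as log2 fold changes with p-values adjusted by the Benjamini-Hochberg method over all genes tested. This scale understates the changes of genes with a low TPM, little for the members but strongly for genes near 0 in 1 group, as for the fibroblast gene Dcn with a TPM ratio of 190.3 and a log2 fold change of 3.47 with LIF. A gene passed the test at an adjusted p under 0.05, and it was called at that p if its log2 fold change was also 1 or more in size, the thresholds of the study. The smallest p of an exact permutation test with 2 libraries a group is 0.333, and all p-values here are those of the limma model. Over all genes tested, the median of the log2 fold changes was 0.165 with LIF and 0.182 with OSM against -LIF-ESCs, and 0.008 between OSM-ESCs and LIF-ESCs. Changes against -LIF-ESCs should be read relative to that shift, and values after rescaling the libraries by the median ratio are given beside most changes of the members and some of other genes.

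With either cytokine, most of the G1 genes stood higher than without. In LIF-ESCs, 7 members passed the test with a higher level than in -LIF-ESCs (Ccnd1, Ccnd2, Ccnd3, Ccne1, Cdk4, Cdk6 and Cdkn1b) and 1 with a lower level (Cdkn2a), where 42.2% of all genes passed higher and 25.9% lower. Of these, 3 were also called, Ccnd2, Ccne1 and Cdkn1b, all higher, against 13.3% of all genes called higher and 8.09% called lower. In OSM-ESCs, 8 members were higher, the same 7 and Rb1, and 0 were lower (also 0 at an unadjusted limma p under 0.05, and 1, Cdkn2a, in voom), against 42.9% and 25.4% of all genes. Here 1 member, Ccnd2, was called, against 14.2% of genes called higher and 7.86% called lower. The median log2 fold change of the 10 members was 0.51 with LIF and 0.70 with OSM. After rescaling by the median ratio it was 0.35 and 0.53, with 7 members higher and 1 lower for LIF, and 6 higher (without Ccnd3 and Rb1) and 1 lower (Cdkn2a) in OSM-ESCs. That rescaling also moved all genes, to 34.4% higher and 33.2% lower in LIF-ESCs and 34.3% and 33.2% with OSM. The responses to LIF and to OSM share the -LIF-ESC libraries, so their likeness is not independent evidence.

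**Figure D1:**
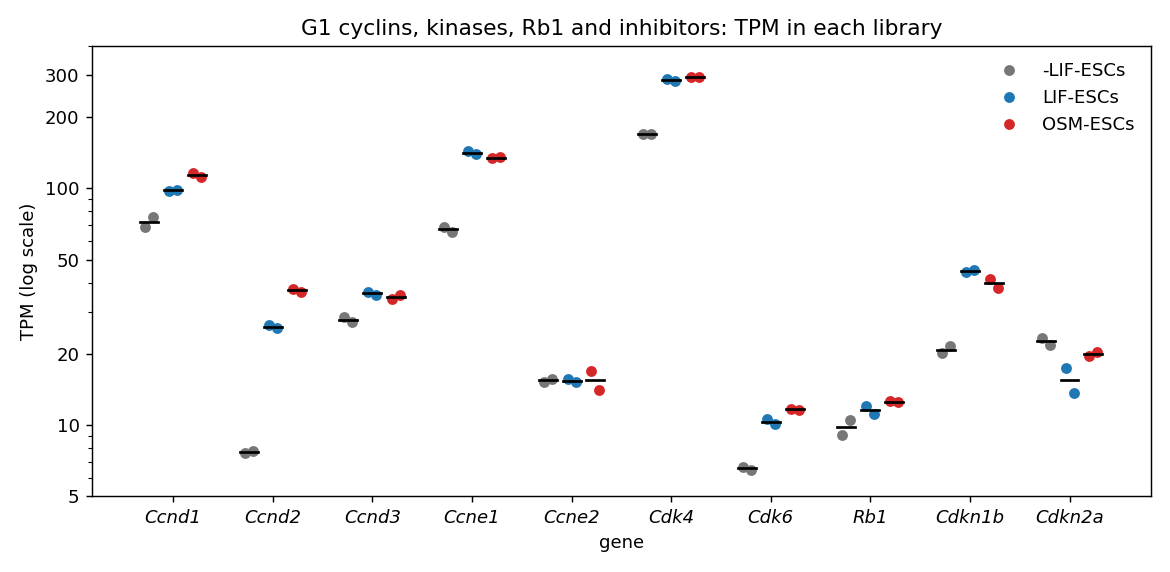
TPM (log axis) of the 10 members in each of the 6 libraries, with grey points for -LIF-ESCs, blue for LIF-ESCs and red for OSM-ESCs, and a black bar at the mean of 2 libraries. Ccnd2 lies at 7.63 and 7.79 TPM without cytokine and above 25 in every library with a cytokine, while the points of Ccne2 overlap in all 3 groups.

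Among the D-type cyclins, Ccnd2 had the lowest level without cytokine, and of all members it had the largest variance of log2(TPM + 1) over the 6 libraries (0.992). Ccnd2 (minus strand of chromosome 6, 127125162 to 127152193 in GRCm38) was at 7.63 and 7.79 TPM without cytokine, 26.3 and 25.6 with LIF and 37.7 and 36.5 with OSM. The 3 groups were fully separated, with a gap between groups far larger than the gap between replicates. The log2 fold change against -LIF-ESCs was 1.63 (SE 0.05, adjusted p = 1.02e-05 in limma) in LIF-ESCs and 2.13 (SE 0.05, adjusted p = 5.18e-06) in OSM-ESCs, or 1.47 and 1.96 after rescaling by the median ratio. On the TPM scale these are ratios of 3.37 and 4.81.

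Ccnd1, the D-type cyclin with the highest level in all groups (chromosome 7, 144929931 to 144939925, minus strand), was at 68.5 and 75.4 TPM without cytokine, 97.8 and 98.2 with LIF and 116 and 112 with OSM. The libraries of the 3 groups did not overlap. The log2 fold change against -LIF-ESCs was 0.44 (SE 0.05, limma adjusted p = 0.00104) with LIF and 0.66 (adjusted p = 0.00023) with OSM, and 0.27 and 0.47 after rescaling. Ccnd3 (chromosome 17, 47505051 to 47599691, plus strand) had the smallest fold changes of the D-type cyclins, from 28.5 and 27.2 TPM without cytokine to 36.7 and 35.6 with LIF and 34.1 and 35.5 with OSM. Both cytokine groups lay above -LIF-ESCs but close to each other. Its log2 fold change was 0.36 with LIF (limma adjusted p = 0.00141) and 0.31 with OSM (adjusted p = 0.00255), of which the second did not pass after rescaling (0.13, adjusted p = 0.0755).

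Shares within a library do not depend on scaling, although their size depends on the annotated exon lengths. The make-up of the cyclin D TPM differed between the groups. Ccnd2 made up 7.30% and 7.05% of the summed cyclin D TPM in -LIF-ESCs, 16.4% and 16.1% with LIF and 20.0% and 19.8% with OSM. Ccnd1 had a mean share of 66.9% without cytokine, 61.2% with LIF and 61.3% with OSM, and Ccnd3 had 26.0%, 22.6% and 18.7%. By TPM, Ccnd1 remained the main D-type cyclin transcript in every library, with 9.33 TPM of Ccnd1 for each TPM of Ccnd2 without cytokine, 3.77 with LIF and 3.08 with OSM. The 3 genes together came to 108 ± 4.12, 160 ± 0.998 and 186 ± 2.69 TPM (mean ± SD, n = 2) in the 3 groups.

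Some other signals moved with Ccnd2. The antisense gene Gm43126 (chromosome 6, 127122966 to 127126155, plus strand) has 429 exon bases, of which 372 lie on exons of Ccnd2 on the opposite strand. It was at 18.1 and 17.5 TPM without cytokine, 58.9 and 55.8 with LIF and 84.0 and 86.3 with OSM, which are log2 fold changes of 1.63, 2.19 and, between OSM-ESCs and LIF-ESCs, 0.56 (limma adjusted p = 8.92e-06, 4.19e-06 and 0.0297). The kit named in the labels does not mark strand and the counting is not stated to use it, so reads of Ccnd2 and Gm43126 in the shared bases cannot be told apart. Other members also share exon bases with a gene on the opposite strand, namely 1100 bases of Ccnd1 with LTO1, 641 of Cdk4 with Tspan31, 609 of Ccne2 with Ints8, 488 and 408 of Rb1 with Rcbtb2 and Lpar6, 368 of Cdk6 with Gm17590 and 361 of Ccnd3 with Bysl.

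Fibroblast markers had the same order of groups as Ccnd2. All 16 that passed the filter, of 17 in the table, were higher in LIF-ESCs and in OSM-ESCs than in -LIF-ESCs, 15 of them called in each, with median log2 fold changes of 2.44 and 2.90, which the pseudocount makes smaller since the median level of the list was 0.864 and 0.879 TPM without cytokine. Of all genes, 13.3% were called higher with LIF and 14.2% with OSM. Col3a1, Col6a3, Dcn, Lum, Postn, Pdgfra, Prrx1 and Lox lay under 1 TPM in both -LIF-ESC libraries. They passed the filter only through the cytokine groups, so the filter set their direction. Col1a1, Col1a2, Col5a2, Thy1, Pdgfrb, Fbn1, Twist1 and Twist2 were above 1 TPM in both -LIF-ESC libraries. Between OSM-ESCs and LIF-ESCs all 16 had positive values, with a median of 0.40, and 3 passed the test, the collagen genes Col1a1 (0.63) and Col1a2 (0.49) and the collagen crosslinking enzyme Lox (0.44). The remaining gene of the list, Fap, was at 0 in both -LIF-ESC libraries. Ccnd2 is expressed in many cell types, and the part of fibroblasts in its level was not tested.

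**Figure D2:**
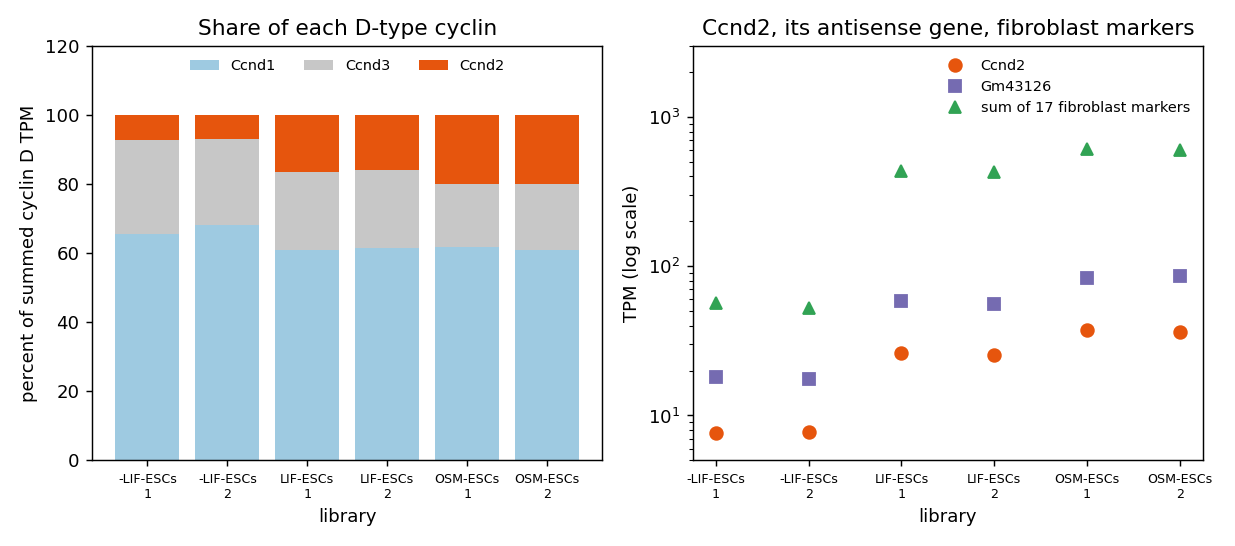
Left, percent of the summed cyclin D TPM held by Ccnd1, Ccnd3 and Ccnd2 in each library (stacked bars); right, TPM on a log axis of Ccnd2, of the antisense gene Gm43126 and of the sum of 17 fibroblast markers in the same libraries. The mean share of Ccnd2 is 7.17% without cytokine, 16.2% with LIF and 19.9% with OSM, and the 3 series on the right share the order -LIF-ESCs, LIF-ESCs, OSM-ESCs.

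Of the 2 E-type cyclins, which activate Cdk2 at the end of G1, 1 passed the test. Ccne1 (chromosome 7, 38097984 to 38107534, minus strand) was at 68.7 and 65.5 TPM without cytokine, 143 and 139 with LIF and 134 and 136 with OSM. Both cytokine groups were about 2-fold above -LIF-ESCs. The log2 fold change was 1.06 (SE 0.04, limma adjusted p = 1.79e-05) with LIF and 0.99 (SE 0.04, adjusted p = 2.03e-05) with OSM, on either side of the threshold of 1, and 0.89 and 0.81 after rescaling, so that the call in LIF-ESCs was lost. Without the first -LIF-ESC library or without the first OSM-ESC library, the value with OSM was 1.03 or 1.00 and Ccne1 was called.

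Ccne2 (chromosome 4, 11191351 to 11204779, plus strand) was at 15.2 and 15.7 TPM without cytokine, 15.7 and 15.1 with LIF and 16.9 and 14.0 with OSM. The groups overlapped in all comparisons. None of its fold changes passed the test, and the 95% interval of the log2 fold change ran from -0.24 to 0.24 both with LIF and with OSM, with values of -0.16 and -0.18 after rescaling (limma adjusted p = 0.133 and 0.113). Ccne1 thus made up 81.9% and 80.7% of the cyclin E TPM in -LIF-ESCs, 90.1% and 90.2% with LIF and 88.8% and 90.6% with OSM.

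Cdk4, the main partner of the D-type cyclins by RNA level here, was the member with the highest TPM in every group. Cdk4 (chromosome 10, 127063534 to 127067920, plus strand) was at 169 and 170 TPM without cytokine, 290.1 and 285 with LIF and 295 and 296 with OSM. Its replicates lay within a few TPM of each other and both cytokine groups lay far above -LIF-ESCs. The log2 fold change was 0.76 (SE 0.03, limma adjusted p = 1.91e-05) with LIF and 0.80 (adjusted p = 1.58e-05) with OSM, and 0.59 and 0.61 after rescaling. The other D-cyclin kinase, Cdk6 (chromosome 5, 3341485 to 3531008, plus strand), was at 6.62 and 6.48, 10.6 and 10.1, and 11.7 and 11.6 TPM, the lowest TPM of the members in every group over the longest exon length (13989 bases). It also rose, by 0.58 with LIF (limma adjusted p = 0.000574) and 0.75 with OSM (adjusted p = 0.000228), or 0.43 and 0.58 after rescaling. As a share of the TPM of the 2 kinases together, Cdk6 took 3.72% without cytokine, 3.46% with LIF and 3.80% with OSM. There were 1.64, 1.86 and 1.65 TPM of the 2 kinases for each TPM of D-type cyclin.

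Rb1, which encodes the substrate that holds E2F factors in check (chromosome 14, 73183673 to 73325822, minus strand), was at 9.09 and 10.5 TPM without cytokine, 12.1 and 11.1 with LIF and 12.6 and 12.5 with OSM. Both cytokine groups lay above -LIF-ESCs without overlap, LIF-ESCs by less than the gap between the 2 -LIF-ESC libraries. The log2 fold change was 0.22 with LIF (limma adjusted p = 0.0682) and 0.33 with OSM (adjusted p = 0.0186). The second did not pass after rescaling (0.16, adjusted p = 0.158), nor without the first -LIF-ESC library (0.23, adjusted p = 0.0698), the first OSM-ESC library (0.32, adjusted p = 0.0728) or the second OSM-ESC library (0.34, adjusted p = 0.0663). The first passed without the second -LIF-ESC library (0.32, adjusted p = 0.03).

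The 2 inhibitor genes went in opposite directions with LIF. Cdkn1b (chromosome 6, 134920401 to 134925513, plus strand) was at 20.1 and 21.6 TPM without cytokine, 44.2 and 45.2 with LIF and 41.5 and 37.9 with OSM. The cytokine groups were about 2-fold above -LIF-ESCs. Its log2 fold change was 1.07 (SE 0.06, limma adjusted p = 7.42e-05) with LIF and 0.90 (adjusted p = 0.000131) with OSM, and 0.90 and 0.72 after rescaling, where the call in LIF-ESCs was lost. Cdkn1b, an inhibitor, and Ccne1, whose complex with Cdk2 its product inhibits, rose by almost the same amount with LIF, and the cyclin E TPM for each TPM of Cdkn1b was 3.97 ± 0.293 without cytokine, 3.51 ± 0.124 with LIF and 3.79 ± 0.222 with OSM (mean ± SD, n = 2).

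Cdkn2a (chromosome 4, 89274471 to 89294653, minus strand) was at 23.3 and 21.8 TPM without cytokine, 17.4 and 13.7 with LIF and 19.6 and 20.3 with OSM. LIF-ESCs were lowest, with the widest gap between replicates, and OSM-ESCs lay between the other groups. The log2 fold change was -0.52 (SE 0.11, limma adjusted p = 0.00931) with LIF, from -0.36 to -0.68 over the alternatives, with the smaller size on leaving out the second LIF-ESC library. With OSM it was -0.17 (adjusted p = 0.234), and -0.35 (adjusted p = 0.0424) after rescaling. The locus has 2 annotated transcripts, from start sites 12427 bases apart, that encode p16Ink4a and p19Arf, and the table sums them in 1 gene value. For each TPM of Cdkn2a there were 0.862 and 0.989 TPM of Cdkn1b in -LIF-ESCs, 2.54 and 3.29 with LIF and 2.12 and 1.86 with OSM.

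The members can be put in order by TPM, which here divides reads by the length of all annotated exons of a gene, used or not. These lengths ran from 1172 bases for Cdkn2a to 13989 for Cdk6, so the order depends on the annotation as well as on the reads. In -LIF-ESCs the order from the highest was Cdk4, Ccnd1, Ccne1, Ccnd3, Cdkn2a, Cdkn1b, Ccne2, Rb1, Ccnd2 and Cdk6, and only Ccnd1 and Ccne1 overlapped between neighbours. In LIF-ESCs it was Cdk4, Ccne1, Ccnd1, Cdkn1b, Ccnd3, Ccnd2, Cdkn2a, Ccne2, Rb1 and Cdk6, with overlap of Cdkn2a and Ccne2. In OSM-ESCs Ccnd2 stood above Ccnd3, the order was otherwise that of LIF-ESCs, and no neighbours overlapped. Cdkn1b moved from below Cdkn2a to above all members but Cdk4, Ccne1 and Ccnd1, and Ccnd2 moved from rank 9 to rank 6 and rank 5.

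Directly between OSM-ESCs and LIF-ESCs, differences were small. Ccnd2 was the only member that passed the test, 0.50 higher on the log2 scale in OSM-ESCs (SE 0.05, 95% interval 0.38 to 0.62, limma adjusted p = 0.0358), a TPM ratio of 1.43, where 0.463% of all genes passed higher and 0.129% lower. No member was called, against 0.0323% of genes called higher and 0.0485% called lower. The size of the Ccnd2 difference stayed between 0.48 and 0.52 over 15 alternatives, but its adjusted p ran from 8.82e-09 to 0.245 and was under 0.05 in 6 of them. It was above 0.05 without any 1 of the 6 libraries (0.0806 to 0.245), and 0.139 with the replicate number as a block.

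The other members gave intervals rather than calls. Ccnd1 was 0.22 higher in OSM-ESCs (95% interval 0.08 to 0.35, limma adjusted p = 0.173), Cdk6 0.16 higher (0.01 to 0.32, adjusted p = 0.307) and Cdkn2a 0.35 higher (0.07 to 0.63, adjusted p = 0.249). Cdkn1b was 0.17 lower (interval -0.33 to -0.01, limma adjusted p = 0.307). These 4 with Ccnd2 make 5 members at an unadjusted p under 0.05, as were 15.3% of all genes. For Cdk4 the interval of the log2 fold change was -0.03 to 0.11, for Ccne1 -0.17 to 0.03, for Ccnd3 -0.17 to 0.07, for Rb1 -0.11 to 0.33 and for Ccne2 -0.24 to 0.24, so that a 2-fold difference lies outside the interval of every member.

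**Figure D3:**
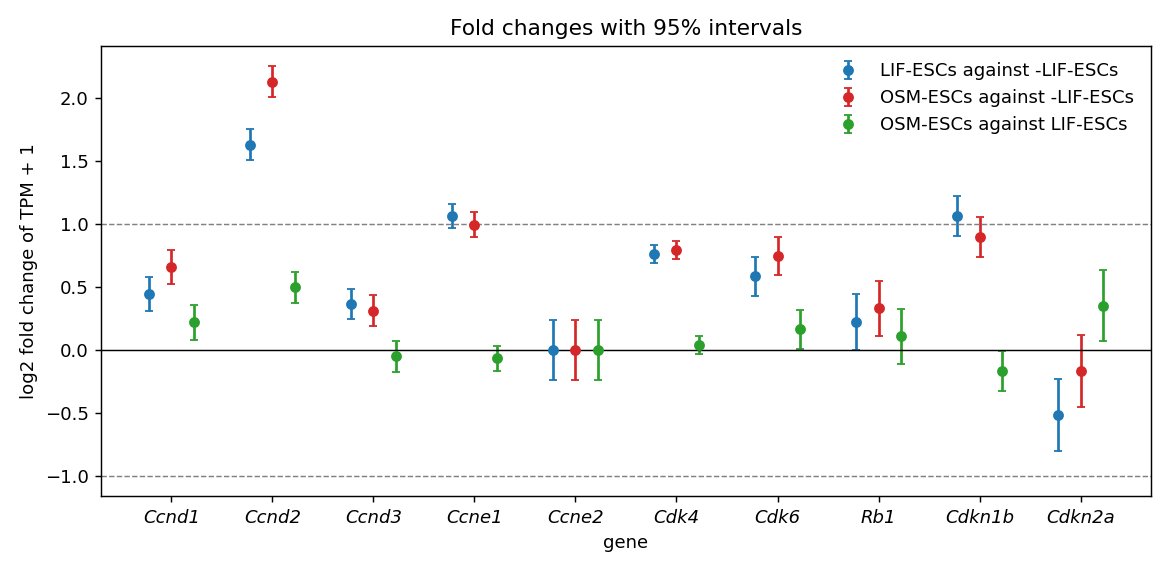
Log2 fold change of TPM + 1 for the 10 members with 95% intervals from limma, in blue for LIF-ESCs and in red for OSM-ESCs against -LIF-ESCs and in green for OSM-ESCs against LIF-ESCs; dashed lines mark 1 and -1. The blue and red points of Ccnd2 lie at 1.63 and 2.13, and the green points of all members lie within 0.50 of 0; after rescaling by the median ratio, blue and red points shift down and Ccnd3 and Rb1 no longer pass with OSM.

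Of 27 other genes of the G1/S machinery, all were tested. Compared with -LIF-ESCs, 14 passed higher and 4 lower with LIF, and 16 passed higher and 4 lower with OSM, where 42.2% and 25.9%, and 42.9% and 25.4%, of all genes did. After rescaling these counts were 11 and 7, and 9 and 7, beside 34.4% and 33.2%, and 34.3% and 33.2%, of all genes. Before rescaling, the median log2 fold change was 0.17 with LIF and 0.17 with OSM, against 0.165 and 0.182 for all genes. Only Cdkn2b, which encodes the Cdk4 and Cdk6 inhibitor p15Ink4b and is the neighbour of Cdkn2a, was called. Cdkn2b was at 4.69 and 7.10 TPM without cytokine, 13.4 and 17.03 with LIF and 22.4 and 20.8 with OSM, with log2 fold changes of 1.25 (SE 0.19, limma adjusted p = 0.00263) and 1.73 (adjusted p = 0.000726). Its groups did not overlap, and it rose where Cdkn2a fell with LIF. The TPM of Cdkn2b and of Cdkn1a did not come out as whole reads with these exon lengths in all libraries.

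The paralogs of the members were mixed. Cdk2, the partner of cyclin E, was at 20.9 and 20.1 TPM without cytokine, 33.3 and 32.9 with LIF and 31.2 and 31.4 with OSM, a log2 fold change of 0.67 (limma adjusted p = 0.000102) and 0.59 (adjusted p = 0.000155). Cdkn1a, which encodes the p53-induced inhibitor p21, averaged 132 TPM without cytokine, 174 with LIF and 233 with OSM, with log2 fold changes of 0.39 and 0.81 (limma adjusted p = 0.00355 and 0.000217). Like Ccnd2 it was highest with OSM, by 0.42 over LIF-ESCs, which did not pass the test (limma adjusted p = 0.0745). The Rb family members diverged: Rbl1 (p107) was lower with LIF (-0.24, limma adjusted p = 0.0279) and with OSM (-0.42, adjusted p = 0.00333), whereas Rbl2 (p130) was higher (0.43 and 0.50, adjusted p = 0.0406 and 0.0257), although Rbl2 did not pass after rescaling (adjusted p = 0.0989 and 0.0643).

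The last 3 inhibitor paralogs had small fold changes. Cdkn1c (p57) averaged 33.0, 33.2 and 39.4 TPM without cytokine, with LIF and with OSM, and its log2 fold change of 0.24 with OSM passed (limma adjusted p = 0.0384) but not after rescaling (0.06, adjusted p = 0.466). Cdkn2d (p19Ink4d) averaged 15.4, 13.8 and 13.1 TPM, with log2 fold changes of -0.15 and -0.22 that did not pass (limma adjusted p = 0.183 and 0.0715) and, after rescaling, -0.31 and -0.40 that did (adjusted p = 0.0194 and 0.00831). Cdkn2c (p18Ink4c) was near 1 TPM in all groups and did not pass in either comparison.

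Genes known as E2F targets, most of them for DNA replication, moved in either direction. Of 20, all tested, 9 passed higher and 6 lower with LIF, as did 9 and 6 with OSM, against -LIF-ESCs, beside the same shares of all genes (42.2% and 25.9%, and 42.9% and 25.4%). After rescaling, which lowers all genes together, 7 were higher and 10 lower, and 6 higher and 10 lower, beside 34.4% and 33.2%, and 34.3% and 33.2%, of all genes. The median log2 fold change before rescaling was 0.09 and 0.06, below the 0.165 and 0.182 of all genes, and after rescaling it was -0.085 and -0.123. The called genes were Mybl2, which encodes the transcription factor B-Myb, at 156 and 154, 545 and 543, and 481 and 493 TPM (log2 fold changes of 1.80 and 1.65, limma adjusted p = 2.51e-06 and 2.80e-06), and Pola1, the catalytic subunit of DNA polymerase alpha (1.51 and 1.36, adjusted p = 3.63e-05 and 4.69e-05). The lowest was the origin licensing gene Cdc6, at 38.1 and 34.3 TPM without cytokine, 19.8 and 20.4 with LIF and 20.3 and 18.6 with OSM (-0.82 and -0.86, limma adjusted p = 0.000321 and 0.00026). After rescaling, Cdc6 had -0.98 and -1.04 (limma adjusted p = 0.00013 and 0.000105), so that it was called lower with OSM. Between OSM-ESCs and LIF-ESCs, none of the 27 and none of the 20 genes passed the test in limma, with log2 fold changes from -0.43 to 0.49 and from -0.16 to 0.06. At an unadjusted limma p under 0.05, 2 G1/S genes were higher and 2 lower, and 0 E2F targets were higher and 4 lower, beside 15.3% of all genes in both directions together. In voom on recovered reads, 2 G1/S genes passed higher and 1 lower, and 0 E2F targets higher and 3 lower, beside 5.26% and 2.56% of all genes.

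**Figure D4:**
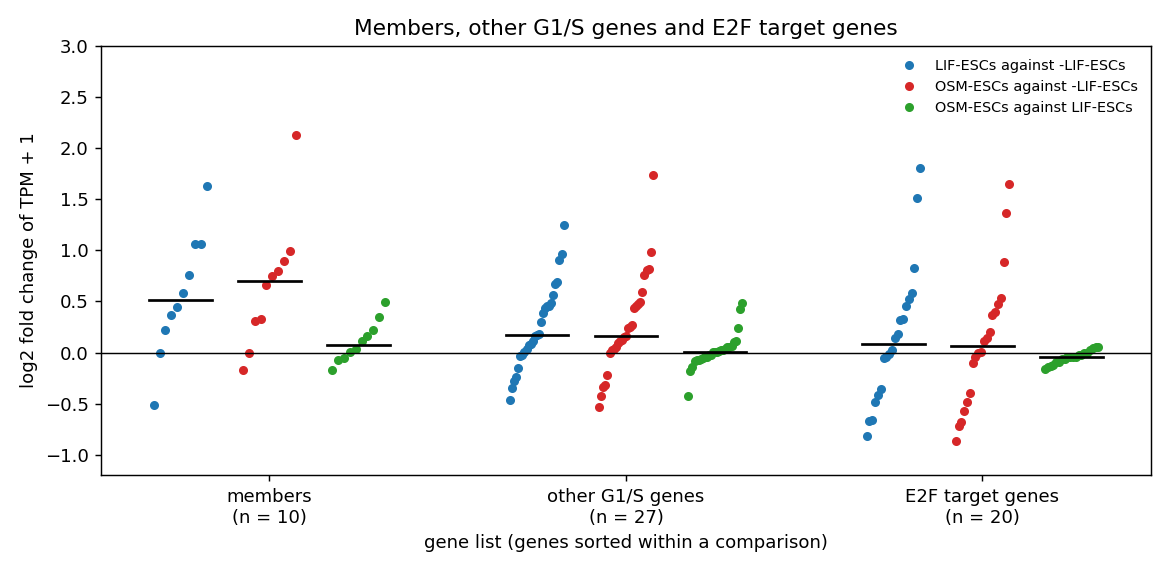
Log2 fold change of TPM + 1 for each of the 10 members, 27 other G1/S genes and 20 E2F target genes, sorted within each comparison, with a black bar at the median. The median of the members is 0.51 with LIF and 0.70 with OSM against -LIF-ESCs, those of the other lists are 0.06 to 0.17 (all genes 0.165 and 0.182), and E2F targets spread from -0.82 to 1.80 with LIF.

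The promoters of members that rose together were read to show what sequence they hold. RefSeq windows (GRCm38.p6, 250 bases before to 50 after a start) matched 6 of the 10 members in 8 windows, for Ccnd3, Ccne1, Cdk4, Cdk6, Cdkn1b and Cdkn2a. Both strands were searched for 4 E2F words, TTTCCCGC, TTTCGCGC, TTTGCCGC and TTTGGCGC, and, a search chosen after the data were seen, for the GC box GGGCGG bound by Sp1, which can share bases with them. The 100 bases before the start are shown for the genes that rose most among those with a window (Ccne1, Cdkn1b and Cdk4) and for the upstream start of Cdkn2a, which holds the only E2F word. Capitals mark these words, read on either strand.

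Ccne1, chr7:38107491-38107590, minus strand: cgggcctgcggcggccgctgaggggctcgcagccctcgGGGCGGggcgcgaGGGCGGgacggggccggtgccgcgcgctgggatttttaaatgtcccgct
Cdkn1b, chr6:134920301-134920400, plus strand: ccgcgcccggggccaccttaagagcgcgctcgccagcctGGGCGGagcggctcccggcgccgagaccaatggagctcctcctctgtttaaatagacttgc
Cdk4, chr10:127063435-127063534, plus strand: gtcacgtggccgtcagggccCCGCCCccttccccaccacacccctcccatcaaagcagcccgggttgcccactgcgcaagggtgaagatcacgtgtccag
Cdkn2a, chr4:89294620-89294719, minus strand: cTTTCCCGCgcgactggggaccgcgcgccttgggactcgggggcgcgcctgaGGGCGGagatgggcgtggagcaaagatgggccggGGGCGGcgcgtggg

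An E2F word was in 1 of the 8 member windows, 99 bases before the upstream start of Cdkn2a, and in 2.26% of all 32851 windows. The windows of Ccne1, Cdk4, Cdk6, Cdkn1b and Ccnd3 held none of the 4 words, which says only that these letters are not there. A GC box lay in the last 100 bases before the start in 6 of the 8 member windows and in 24.7% of all windows. The genes with a GC box there were Cdkn2a, which fell with LIF, and Ccnd3, Ccne1, Cdk4 and Cdkn1b, which rose. Ccnd3 had the box in both of its windows and Cdkn2a only in the upstream window. Cdk6, which also rose, had no GC box there. These stretches of the members were 65.0% to 78.0% G and C, and the share over all windows was not matched for this.

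The genes most like Ccnd2 across the 6 libraries, by the Euclidean distance between log2(TPM + 1) profiles centred on their means, were Syn3 (distance 0.0817), Csf1 (0.0877), Ugt1a6a (0.0902), Elk3 (0.0925) and Pappa (0.0966). Of these, Csf1, the macrophage colony-stimulating factor gene, was at 20.2 and 21.8 TPM without cytokine, 69.4 and 69.0 with LIF and 101 and 95.01 with OSM. Ugt1a6a was near 0 TPM without cytokine and at 2.10 and 2.03, and 3.33 and 3.46 TPM with the cytokines. Pappa was at 0.328 and 0.351 TPM without cytokine, 3.03 and 3.04 with LIF and 4.86 and 4.34 with OSM. The 1 added to TPM shrinks the changes of low genes. Ugt1a6a and Pappa thus lie near Ccnd2 on this scale although their TPM ratios are much larger. The antisense gene Gm43126 came next, at rank 6 of 18546 genes with a distance of 0.11.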

How the data were processed

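RNA of 6 mESC cultures was sequenced as poly(A) libraries. The authors used Trimmomatic, HISAT2 (genome mm10) and featureCounts, and the values they deposited are TPM, which divides reads by gene length and scales all libraries to 1 total, so that a rise of some genes lowers others. The annotation, strand setting and treatment of shared reads are not given in the sources used here. Groups came from the labels.

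Exon lengths from GENCODE M21 matched 28404 symbols (99.4%), and 94.6% of their values were whole reads within 0.02. Recovered reads give depth and counting error, and of the tests only the voom alternative used them. Intervals of counting error do not enter the tests. TPM was tested with limma 3.58.1 (R 4.3.3; lmFit, eBayes with a trend) as log2(TPM + 1), with 3 groups in 1 fit and 3 residual degrees of freedom. Same-number replicates did not deviate together.

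The members and lists were chosen with earlier results of these data known. Named were the 10 members, their 8 paralogs, called genes of 2 pathway lists (27 G1/S genes, 20 E2F targets), the 5 profiles nearest to the most variable member, and outside this rule Cdc6, single marker genes and overlapping genes, chosen after their values were seen. Alternatives were a pseudocount of 0.1, no filter or 5 TPM, no trend, a fit of 2 groups, a replicate block, median-ratio rescaling, removal of 37 mitochondrial genes, limma's voom on recovered reads and each library left out. Only the main fit ran first on simulated data. Plots were made with Python 3.11.15 and matplotlib 3.10.9.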

Additional observations from a re-analysis of the deposited data

Results flagged for a closer look

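One value differed between the responses to the 2 cytokines by a test of the difference itself. Ccnd2 was 0.498 higher on the log2 scale in OSM-ESCs than in LIF-ESCs (limma adjusted p = 0.0358), higher in 2 of 2 OSM-ESC libraries than in either LIF-ESC library. Beside it, the antisense gene Gm43126, which shares 372 exon bases with Ccnd2, differed by 0.56, and 16 tested fibroblast markers had a median of 0.40, and their part in the difference was not tested. The adjusted p of Ccnd2 was under 0.05 in 6 of 15 alternatives and above it without any 1 of the 6 libraries.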

How the results depend on the processing

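Of the values for the 10 members in 3 comparisons, 421 kept their direction and side of the threshold over the alternatives, 14 lost and 6 gained significance, and 9 changed sign. The sign changes were all of Ccne2, whose fold changes in the main fit were near 0 in every comparison. With LIF its log2 fold change was -0.027 to 0.024 and with OSM -0.13 to 0.13 when a library was left out, and between OSM-ESCs and LIF-ESCs it was -0.13 to 0.13 when a library was left out, -0.012 after median-ratio rescaling, -0.0028 without mitochondrial genes and -0.0079 in voom. Singly, the turned values were 0.020 and 0.024 (without the second -LIF-ESC or LIF-ESC library), 0.021 and 0.13 (without the second -LIF-ESC or OSM-ESC library), and -0.025 and -0.13 (without the second LIF-ESC or first OSM-ESC library).

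The 3 members called with LIF became 1 after median-ratio rescaling and 1 in voom, where Ccne1 and Cdkn1b lay under the fold limit, and 8 with no limit on the fold change. The 1 called with OSM became 2 at a pseudocount of 0.1, 1 to 2 when a library was left out, and 8 with no limit. Between OSM-ESCs and LIF-ESCs, 0 were called and 1 with no limit on the fold change; that 1 became 0 without a trend, 0 in a fit of only the 2 groups, 0 with the replicate block, 0 to 0 with each library left out, and 4 in voom (Ccnd1, Ccnd2 and Cdk6 higher, Cdkn1b lower), where 970 and 472 of all genes passed. The cause was not tested.

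Replicates with the same number did not deviate together (correlations of -0.04, -0.02 and 0.03), which cannot show whether the cultures were paired or shared a batch. With the replicate block, 0 of all genes passed between OSM-ESCs and LIF-ESCs in limma, with 1640 higher and 837 lower at an unadjusted p under 0.05, and the counts of members with LIF and with OSM did not change. With 2 cultures a group, leaving out a library assumes that the lone one varies like the other groups. Cdkn2a, with 145 to 309 reads, has the widest counting error.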
